A study of Mus musculus with 4 samples.

Results

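The genes described here are 9 genes of lipid-laden macrophages: Gpnmb, Mmp12, Clec7a, Ctss, Lyz2, Mpeg1, Cd68, Trem2 and Spp1. They are 9 of the 37819 features in the deposited gene table, found there by their gene symbols, and each matched exactly 1 row. They were chosen by their counts, which were higher in the NASH library than in wild-type, so that their values in that contrast, and in any contrast that uses the NASH or the wild-type library, are a description and carry no test. The study compared RNA of liver mitochondria between mouse models of metabolic disease, with non-coding RNA species as its stated interest. After depletion of ribosomal RNA, total RNA from mitochondria of the liver was sequenced in 4 libraries from mice of postnatal week 7. Each group was 1 library, so no difference between groups has a replicate check, and a group cannot be told apart from its library.

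The wild-type group was C57BL/6J mice. The ob group was B6.Cg-Lepob/J, a line with a mutation in the gene of the satiety hormone leptin. The db group was of a line with the db mutation in the leptin receptor gene. Its genotype label names the BKS background and does not tell which genotype of the line the animals had. Its strain label nevertheless read C57BL/6J, as did that of the other groups, so the genetic background of db is uncertain. The NASH group was labelled as wild type with NASH, non-alcoholic steatohepatitis, and the diet or agent behind it is not named in the labels. The labels name no method of purifying mitochondria, and they do not tell whether animals were pooled.

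Macrophages that take up large amounts of lipid and dead-cell debris, in fatty liver, obese adipose tissue and arterial plaques, are known to share a set of surface receptors, lysosomal proteins and secreted factors. TREM2 is a lipid-sensing receptor of such cells, signals through the adaptor TYROBP and the kinase SYK, and is required in mice for the full form of this state. Kupffer cells, the resident macrophages of the liver, are in part lost in steatohepatitis in mice and replaced by cells that derive from monocytes. All 9 genes are encoded in the nucleus, and their mRNAs are translated in the cytoplasm. The purity of the mitochondrial preparations was not measured in the files used here.

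The libraries held between 529815 counts (NASH) and 1005915 counts (db), and 5347 features had at least 10 counts in at least 1 library. Counts were scaled by TMM, the trimmed mean of M-values, and are given as CPM, counts per 1000000 of the scaled library. Features that resemble genes of the mitochondrial genome took 53.2% of the counts in wild-type, 28.7% in ob, 75.5% in the NASH library and 26.3% in db, so the depth left for other genes differed. A count of 3 was worth 6.95 CPM in wild-type, 1.99 in ob, 6.15 in the NASH library and 2.84 in db. Intervals of levels and folds are exact 95% intervals and cover counting error only, and no p-value was computed.

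The 9 genes together had a count of 73 in wild-type, 294 in ob, 692 in the NASH library and 168 in db. Scaled, their summed level was 169 CPM (133 to 213) in wild-type, 195 CPM (174 to 219) in ob, 1419 CPM (1315 to 1528) in the NASH library and 159 CPM (136 to 185) in db. The NASH library stood alone at the top, and the intervals of the other 3 overlapped. The summed level in NASH was 8.39 times that in wild-type (6.58 to 10.8), 7.27 times that in ob (6.33 to 8.36) and 8.92 times that in db (7.53 to 10.6). Without Gpnmb and Mmp12, which had 0 counts in wild-type, NASH was still 5.59 times as high as wild-type (4.36 to 7.25). In bulk RNA, fewer cells of a type and less RNA per cell cannot be told apart, nor can more cells and more RNA per cell.

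**Figure D1:**
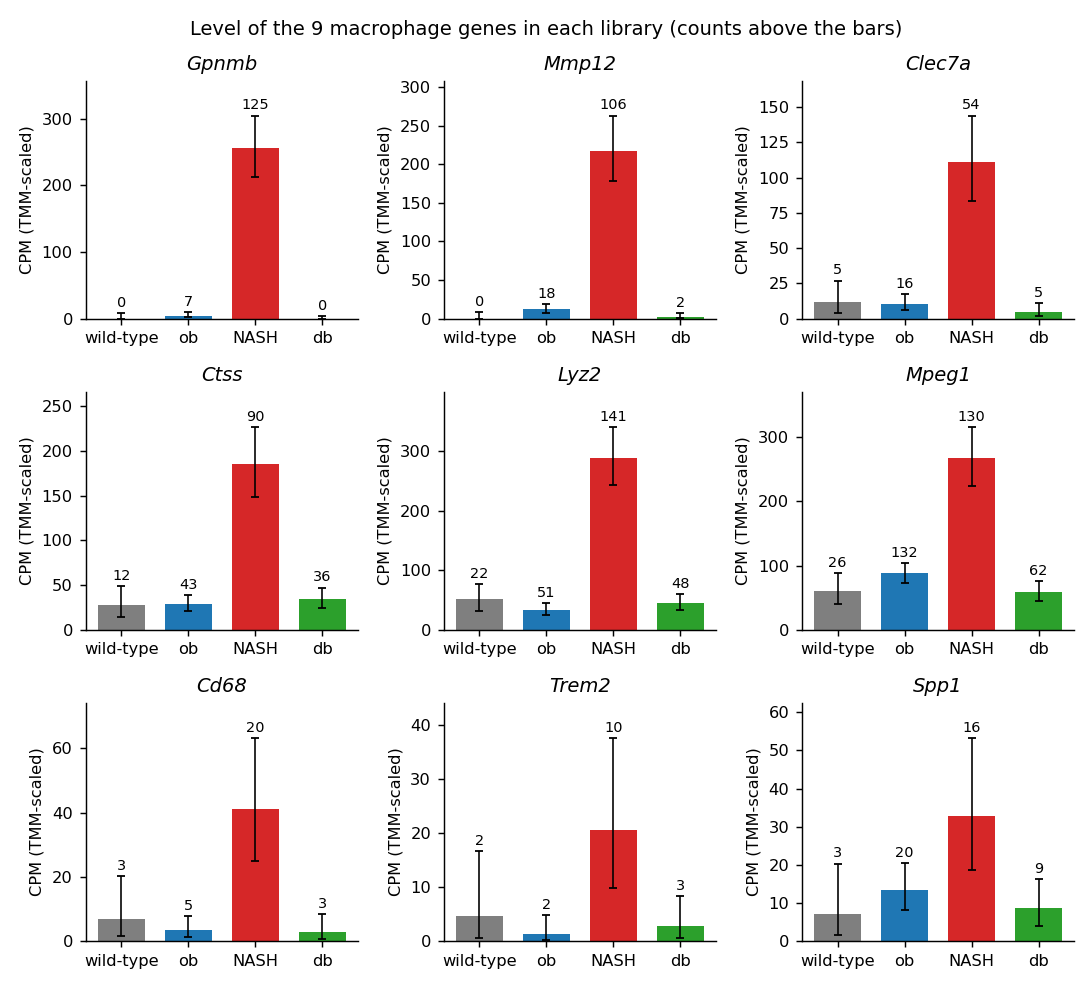
Level of each of the 9 genes in the 4 libraries, in CPM of the TMM-scaled library, each panel on its own axis from 0. Bars are single libraries, lines are exact 95% Poisson intervals of the count, and the count stands above each bar. The NASH bar is the highest in all 9 panels. For Gpnmb it is at 256 CPM against 0 in wild-type and db.

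Gpnmb encodes glycoprotein NMB, a transmembrane protein of lysosomes and melanosomes that is known to be abundant in lipid-laden macrophages. The gene lies on chromosome 6 at 49036518 to 49058182 on the plus strand (mm10). It had a count of 0 in wild-type, 7 in ob, 125 in the NASH library and 0 in db. In CPM this was 0, 4.65, 256 and 0, so that NASH held 98.2% of the scaled signal of the 4 libraries. For the counts of 0, the exact interval reached up to 8.55 CPM in wild-type and 3.49 CPM in db. Folds against them were set against the floor of 3 counts, 6.95 and 2.84 CPM. NASH was at least 36.9-fold higher than wild-type, 55.1-fold higher than ob (26.0 to 140) and at least 90.2-fold higher than db. Among the 5347 features, Gpnmb ranked first by the difference of log2(CPM + 1) in each of these 3 contrasts.

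Mmp12, on chromosome 9 at 7344381 to 7369499 on the plus strand, encodes macrophage elastase, a secreted metalloproteinase that cleaves elastin. It had a count of 0 in wild-type, 18 in ob, 106 in the NASH library and 2 in db, or 0, 12.0, 217 and 1.89 CPM. NASH was the highest library and ob the next. NASH was at least 31.3-fold higher than wild-type, 18.2-fold higher than ob (11.0 to 31.8) and 115-fold higher than db (31.0 to 960). Mmp12 ranked second of 5347 features in NASH against wild-type and against db, and at place 13 against ob. The collagenase-like gene Mmp1b overlaps it on the minus strand and had 0 counts in every library.

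The sequence upstream of these genes is shown because Gpnmb and Mmp12 were the 2 features with the largest difference between NASH and wild-type. The stretches are the 250 bases before a RefSeq start (GRCm38.p6, plus strand, 5′ to 3′), at chr6:49036268-49036517 for Gpnmb and at chr9:7347124-7347373 for Mmp12. The Mmp12 stretch lies before the downstream of its 2 RefSeq starts, inside an intron of the transcripts that begin further upstream. Capitals mark matches on either strand to the AP-1 motif TGANTCA, the ETS core GGAAGT that PU.1 also recognises, or the E-boxes CACATG and CACGTG.
Gpnmb: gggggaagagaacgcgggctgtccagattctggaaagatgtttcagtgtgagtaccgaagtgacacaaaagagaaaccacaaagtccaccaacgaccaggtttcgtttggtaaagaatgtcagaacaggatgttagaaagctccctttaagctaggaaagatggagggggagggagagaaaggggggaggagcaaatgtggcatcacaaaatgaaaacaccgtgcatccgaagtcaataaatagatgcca
Mmp12: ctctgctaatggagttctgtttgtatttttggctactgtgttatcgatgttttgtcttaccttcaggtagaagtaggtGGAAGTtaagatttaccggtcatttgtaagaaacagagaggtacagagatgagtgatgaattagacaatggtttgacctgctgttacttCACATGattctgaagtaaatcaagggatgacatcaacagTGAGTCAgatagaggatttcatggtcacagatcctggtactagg

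The Gpnmb stretch held none of these letters. The Mmp12 stretch held GGAAGT at 172 to 167 bases before the start, CACATG at 83 to 78 bases and TGANTCA at 44 to 38 bases. The window before the upstream Mmp12 start, which is not printed, held GGAAGT at 88 to 83 and at 45 to 40 bases, the first of them within the longer PU.1 core GAGGAAGT at 88 to 81 bases, and neither TGANTCA nor an E-box. All 9 genes had an upstream window in the RefSeq table, with 12 starts in total. TGANTCA was found before 3 of the 12 starts (of Mmp12, Cd68 and Trem2), and in 6.75% of the 32851 windows of all genes. GGAAGT was found before 4 of the 12 (of Lyz2, Spp1 and both of Mmp12), against 19.7% of all windows. GAGGAAGT, which contains GGAAGT, was found before 2 (of Spp1 and the upstream one of Mmp12), against 2.44%. CACATG was found before 1 (of Mmp12), against 12.3%, and CACGTG before 0 of the 12, against 6.02%. A match is a description of the letters in this window, and binding was not measured.

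The receptor genes were Clec7a and Trem2. Clec7a encodes Dectin-1, the receptor for fungal beta-glucans, on chromosome 6 at 129461591 to 129472777 on the minus strand. The deposited table classes it as a polymorphic pseudogene, as GENCODE M21 does. It had a count of 5 in wild-type, 16 in ob, 54 in the NASH library and 5 in db, or 11.6, 10.6, 111 and 4.73 CPM. NASH was 9.55-fold higher than wild-type (3.85 to 30.6), 10.4-fold higher than ob (5.87 to 19.5) and 23.4-fold higher than db (9.43 to 74.9). The other 3 libraries did not differ beyond their counting intervals.

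Trem2, on chromosome 17 at 48346401 to 48354147 on the plus strand, was the least abundant of the 9 genes in NASH. It had a count of 2 in wild-type, 2 in ob, 10 in the NASH library and 3 in db, or 4.64, 1.33, 20.5 and 2.84 CPM. The NASH count was the highest, but its ratio to wild-type, 4.42, had an interval of 0.943 to 41.5 that included 1. Against ob the ratio was 15.4 (3.29 to 145), and against db 7.22 (1.86 to 40.8). It is the member of the set whose difference from wild-type was not detectable at this depth.

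The lysosomal and phagosomal genes were Ctss, Lyz2, Cd68 and Mpeg1. Ctss encodes cathepsin S, the cysteine protease that trims the invariant chain for antigen presentation, on chromosome 3 at 95526786 to 95556403 on the plus strand. Its counts were 12 in wild-type, 43 in ob, 90 in the NASH library and 36 in db, or 27.8, 28.6, 185 and 34.1 CPM. NASH was 6.63-fold higher than wild-type (3.62 to 13.3), 6.46-fold higher than ob (4.44 to 9.52) and 5.41-fold higher than db (3.64 to 8.21). The other 3 libraries lay close together, with db 1.19 times ob (0.745 to 1.90). The pseudogene Hmgb1-ps5 overlaps Ctss and had 0 counts in every library.

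Cd68 encodes macrosialin, a heavily glycosylated lysosomal membrane protein used as a macrophage stain, on chromosome 11 at 69664213 to 69666153 on the minus strand. It had a count of 3 in wild-type, 5 in ob, 20 in the NASH library and 3 in db, or 6.95, 3.32, 41.0 and 2.84 CPM. Only NASH had more than 5 counts. NASH was 5.90-fold higher than wild-type (1.75 to 31.0), 12.3-fold higher than ob (4.50 to 42.1) and 14.4-fold higher than db (4.28 to 75.9).

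Mpeg1 encodes perforin-2, a pore-forming protein of phagosomes, on chromosome 19 at 12460779 to 12465284 on the plus strand. Its counts were 26 in wild-type, 132 in ob, 130 in the NASH library and 62 in db, or 60.3, 87.7, 267 and 58.7 CPM. Counts in ob and NASH were nearly equal, and the levels differ through the scaling and the larger ob library. NASH was 4.42-fold higher than wild-type (2.89 to 7.02), 3.04-fold higher than ob (2.37 to 3.90) and 4.54-fold higher than db (3.33 to 6.25). Mpeg1 was 1.49-fold lower in db than in ob (1.10 to 2.05).

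Lyz2 encodes the lysozyme of macrophages, which cleaves bacterial cell walls, on chromosome 10 at 117277334 to 117282274 on the minus strand. Its expected counts as deposited were 22 in wild-type, 50.5 in ob, 140.5 in the NASH library and 48 in db. Scaled, these were 51.0, 33.9, 289 and 45.4 CPM, with NASH far above the other 3, which lay close together. NASH was 5.67-fold higher than wild-type (3.60 to 9.34), 8.53-fold higher than ob (6.15 to 12.0) and 6.36-fold higher than db (4.55 to 9.02).

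Lyz2 has a close copy, Lyz1, on chromosome 10 at 117287796 to 117292868, which encodes the lysozyme of intestinal Paneth cells. The coding sequences in GENCODE M21 are both 444 bases and differ at 22 positions, with a shared run of 118 bases from coding base 276 to 393. The first 150 coding bases are printed because they hold 14 of the 22 differences, in capitals, by which reads can be given to either gene.
Lyz2: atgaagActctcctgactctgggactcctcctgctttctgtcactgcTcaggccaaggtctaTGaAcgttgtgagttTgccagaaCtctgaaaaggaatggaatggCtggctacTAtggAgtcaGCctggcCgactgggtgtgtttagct
Lyz1: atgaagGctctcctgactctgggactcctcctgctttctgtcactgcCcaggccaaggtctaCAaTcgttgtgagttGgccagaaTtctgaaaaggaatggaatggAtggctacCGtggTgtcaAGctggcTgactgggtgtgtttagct

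Lyz1 was listed at 1 count in wild-type, 8.5 in ob, 18.5 in the NASH library and 2 in db. The fractions in ob and NASH, 50.5 with 8.5 and 140.5 with 18.5, fall in the same 2 libraries for both genes. Lyz2 took 95.7% of the reads of both genes in wild-type (78.1 to 99.9), 85.6% in ob (73.4 to 92.9), 88.4% in the NASH library (82.1 to 92.7) and 96.0% in db (86.3 to 99.5). The labels and headers do not tell how reads with several places were counted, so the split between the copies is uncertain. Taken as 1 feature, both genes had 23, 59, 159 and 50 counts, and NASH was 6.12-fold higher than wild-type (3.93 to 9.93).

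Spp1 encodes osteopontin, a secreted ligand of CD44 and of several integrins, on chromosome 5 at 104435118 to 104441050 on the plus strand. It had a count of 3 in wild-type, 20 in ob, 16 in the NASH library and 9 in db, or 6.95, 13.3, 32.8 and 8.52 CPM. NASH held 53.3% of its scaled signal of the 4 libraries, the lowest such share of the 9 genes. NASH was 4.72-fold higher than wild-type (1.35 to 25.3), 3.85-fold higher than db (1.60 to 9.88) and 2.47-fold higher than ob (1.20 to 5.02). Spp1 is also known from bile duct cells, and the cholangiocyte list had a count of 3 in wild-type, 2 in ob, 3 in the NASH library and 3 in db over its 8 genes. These counts are at or under the floor of 3, so the list is not informative at this depth. The part of bile duct cells in Spp1 was not tested.

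**Figure D2:**
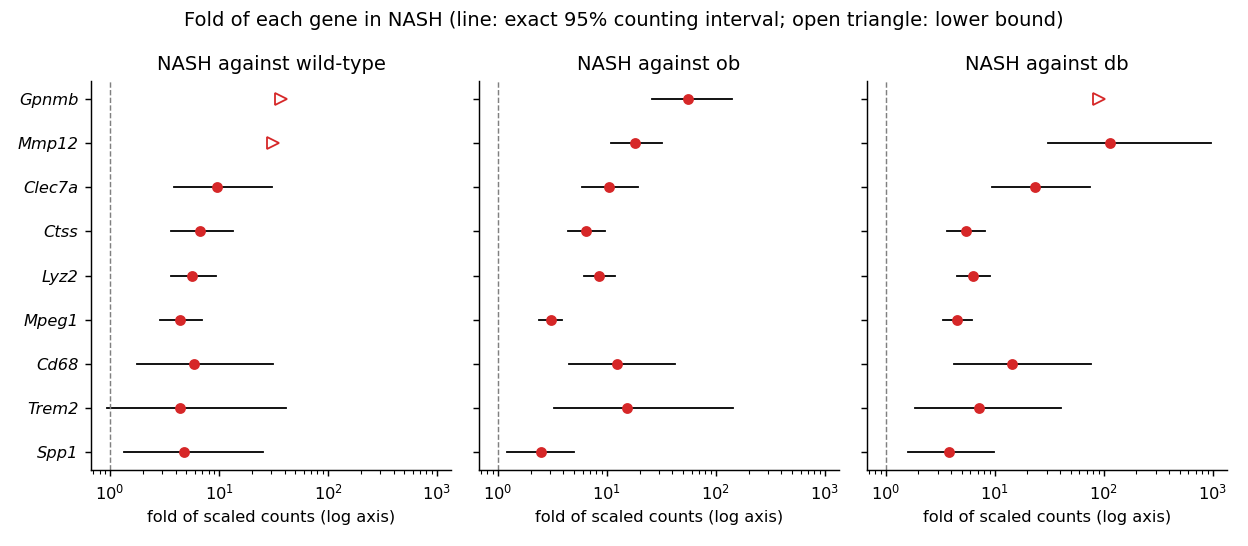
Fold of scaled counts in NASH against wild-type, ob and db for each of the 9 genes, on a log axis. Points are ratios with their exact 95% counting interval, open triangles are lower bounds against a floor of 3 counts, and the dashed line marks equal levels. The intervals lie above 1 except for Trem2 against wild-type, which reaches down to 0.943.

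Levels between genes can be compared only per length. The length used was that of all exons of all annotated transcripts of a gene together. It was 6514 bases for Gpnmb (5 transcripts), 7237 for Mmp12 (7 transcripts), 4946 for Trem2 (4 transcripts) and 4334 for Mpeg1 (1 transcript). Which transcripts were present was not measured, and a shorter transcript would give a higher value. In NASH, CPM per kilobase of exon was 220 for Lyz2, 136 for Ctss, 61.5 for Mpeg1, 42.0 for Clec7a, 39.3 for Gpnmb, 32.6 for Cd68, 19.9 for Spp1 and 4.15 for Trem2, with Mmp12 between Cd68 and Spp1. In wild-type the same quantity was 38.7 for Lyz2, 20.5 for Ctss and 13.9 for Mpeg1, and it was 5.53 or less for the other 6. By this length Lyz2, Ctss and Mpeg1 headed the order in both libraries, but the place of genes with several transcripts depends on the length chosen. Clec7a, Gpnmb, Cd68 and Mmp12 lay close together in NASH by the same length.

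The make-up of the set differed between libraries. Gpnmb and Mmp12 made up 33.4% of its counts in NASH (29.9 to 37.0), 8.50% in ob (5.58 to 12.3), 1.19% in db (0.144 to 4.23) and 0% in wild-type (up to 4.93). Mpeg1 was the largest item elsewhere, with 35.6% in wild-type (24.7 to 47.7), 44.9% in ob (39.1 to 50.8) and 36.9% in db (29.6 to 44.7), but 18.8% in NASH (15.9 to 21.9). These shares are free of the scaling, but counts in NASH and wild-type took part in the choice of the genes.

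All 9 genes passed the filter of 10 counts in at least 1 library. Gpnmb, Cd68 and Trem2 passed it through the NASH library alone and so had to be higher there. By a difference of log2(CPM + 1) of at least 1, 9 of 9 genes were higher in NASH than in wild-type, where 20.3% of all 5347 features were higher and 31.8% lower by the same rule. Against ob 9 of 9 were higher in NASH, beside 14.3% of all features higher and 45.3% lower. Against db 9 of 9 were higher, beside 23.0% higher and 36.3% lower. The 3 contrasts share the NASH library, and nothing is read from these counts beyond the choice of the genes.

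The median difference of the 9 genes in log2(CPM + 1) was 2.48 in NASH against wild-type, beside a median of -0.14 over all features. Single genes ran from 1.93 to 8.01. It was 3.21 against ob, beside -0.75, and 2.64 against db, beside -0.24. With counts under 3 set at 3, the medians of the 9 genes were 2.48, 3.06 and 2.64. Over 7 ways of scaling the libraries, the median of the 9 genes in NASH against wild-type ran from 2.48 to 3.84 and stood 2.62 to 2.86 above that of all features. The scaling moved the share of all features called higher in that contrast between 20.3% and 48.9%, and the share called lower between 16.2% and 31.8%. With counts under 3 set at 3, these shares were 8.34% and 19.8%, and with a pseudocount of 5 CPM they were 10.7% and 21.5%. Many calls among all features thus rested on low counts.

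**Figure D3:**
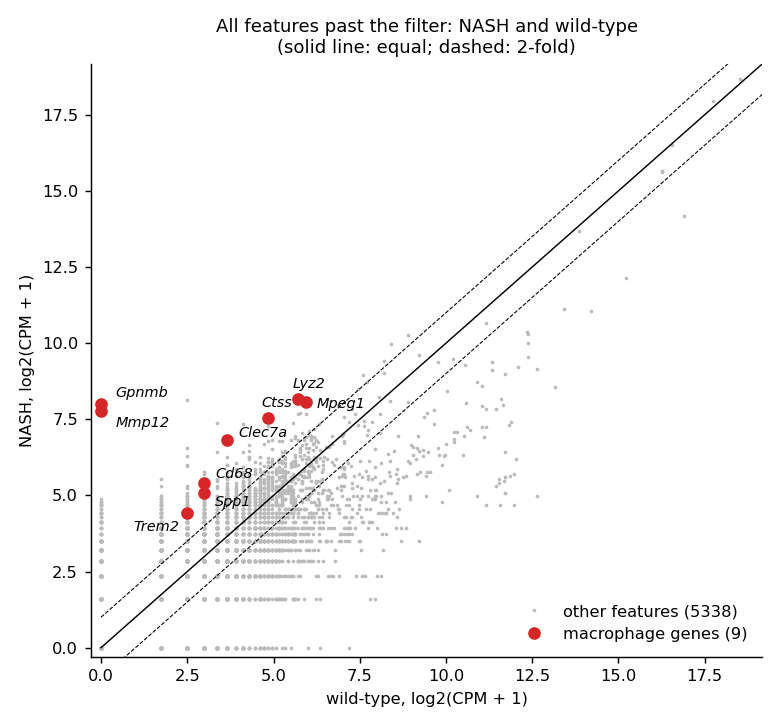
Level in NASH (vertical) against wild-type (horizontal) as log2(CPM + 1) for the 5347 features past the filter. Each grey point is a feature, red points are the 9 genes, the solid line marks equal levels and dashed lines mark 2-fold. The 9 genes lie above the upper dashed line, with Gpnmb and Mmp12 on the left edge at 0 counts in wild-type.

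The levels of the set in the leptin and leptin receptor mutants depended on the choices made. Under TMM the summed level in ob was 1.15 times wild-type (0.890 to 1.51) and that in db 0.940 times wild-type (0.710 to 1.25). The ob value depended on the scaling, since with plain library totals it was 2.53, and over the 7 scalings it ran from 1.04 to 2.53. The median over all features in ob against wild-type moved with it, from 0.41 under TMM to 1.41 under plain totals, and the median of the 9 genes stood 0.28 to 0.37 below that of all features under each of the 7. For db against wild-type the 7 scalings gave 0.850 to 1.44. The median difference of the 9 genes from wild-type was 0.04 in ob and -0.04 in db, or -0.11 and -1.05 with counts under 3 set at 3. Without Lyz2, whose split with Lyz1 is uncertain, ob was 1.37 times wild-type under TMM (1.01 to 1.88) and db 0.961 times (0.687 to 1.36). A difference of the summed level of ob from wild-type thus rested on the scaling and on Lyz2. The db value moved with the scaling and little with Lyz2.

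By the 2-fold rule, 2 of 9 genes were higher in ob than in wild-type (Gpnmb and Mmp12) and 1 was lower (Trem2), beside 34.5% of all features higher and 15.5% lower. The wild-type counts behind these calls were 0, 0 and 2. For Gpnmb the ob level of 4.65 CPM lay under the wild-type floor of 6.95 CPM, so no direction follows. For Mmp12 the ob level was at least 1.72-fold above it. In db against wild-type 1 gene was higher (Mmp12, 2 counts against 0) and 2 were lower (Clec7a and Cd68), beside 28.8% of all features higher and 21.5% lower. Clec7a in db was 0.408 times wild-type, with an interval of 0.0940 to 1.77 on 5 and 5 counts.

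The contrast of db with ob uses neither the NASH nor the wild-type library, but the genes were chosen with its values known, so it is a description too. The summed level in db was 1.23-fold lower than in ob (1.01 to 1.49), and over the 7 scalings db stood between 0.550 and 0.979 times ob. Without Gpnmb and Mmp12 db was 0.880 times ob, with an interval of 0.720 to 1.07 that included 1. Of the 9 genes 0 were at least 2-fold higher in db and 3 were lower (Gpnmb, Mmp12 and Clec7a), beside 19.6% of all features higher and 30.2% lower. Mmp12, with 2 counts in db and 18 in ob, was 6.31-fold lower in db (1.51 to 56.1). Clec7a was 2.25-fold lower with an interval of 0.786 to 7.84, and Gpnmb had 0 counts in db against 7 in ob. The median difference of the 9 genes was -0.57, beside -0.17 over all features.

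To set the 9 genes against other macrophage RNA of the same library, their counts were divided by those of 16 resident Kupffer cell genes, such as Clec4f, Cd5l and the C1q genes. This ratio needs no scaling between libraries. There were 37.6 counts of the set per 100 Kupffer list counts in wild-type (28.3 to 49.5), 47.6 in ob (41.3 to 54.8), 168 in the NASH library (148 to 190) and 24.9 in db (20.9 to 29.5). NASH was 4.46 times wild-type by this ratio (3.29 to 6.08), 3.52 times ob (2.92 to 4.26) and 6.75 times db (5.45 to 8.36). The db ratio was 1.91-fold lower than that of ob (1.53 to 2.40). It was 0.661 times that of wild-type (0.477 to 0.924). The ob ratio was 1.27 times that of wild-type, with an interval of 0.928 to 1.74, and without Lyz2 it was 1.50 times (1.05 to 2.15).

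Against 18 pan-macrophage and leukocyte genes, such as Csf1r, Adgre1 and Lcp1, there were 58.9 counts per 100 in wild-type (43.5 to 79.2), 82.4 in ob (70.3 to 96.4), 194 in the NASH library (171 to 222) and 61.5 in db (50.5 to 74.9). NASH was 3.30 times wild-type (2.38 to 4.60), 2.36 times ob (1.92 to 2.90) and 3.16 times db (2.49 to 4.01). By this list ob was 1.40 times wild-type, with an interval of 0.996 to 1.97, and without Lyz2 1.65 times (1.14 to 2.43). In turn db was 1.05 times wild-type (0.729 to 1.50), so the lower db ratio seen against the Kupffer list was not seen here. By both lists the ratio was highest in NASH.

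**Figure D4:**
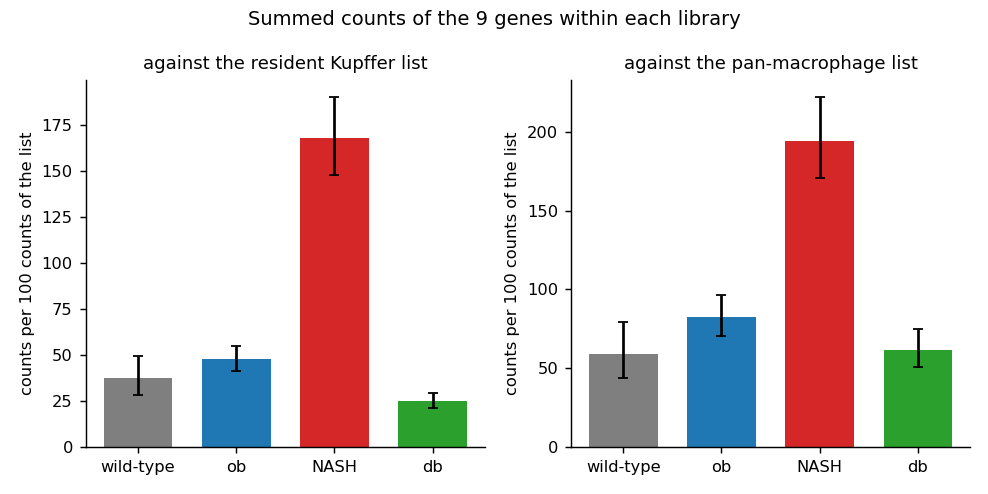
Summed counts of the 9 genes per 100 counts of the resident Kupffer list (left) and of the pan-macrophage list (right) in each library. Bars are single libraries and lines are exact 95% intervals for counting error. The NASH bars stand at 168 and 194, and the next highest, ob, at 47.6 and 82.4.

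The genes did not move alike by this measure. Against the pan-macrophage list, Gpnmb in NASH was 17.9 times ob (8.26 to 46.0) and Mmp12 5.91 times ob (3.47 to 10.6). Lyz2 was 2.77 times ob (1.93 to 4.03) and Clec7a 3.38 times ob (1.86 to 6.45). Mpeg1 was 0.988 times ob, with an interval of 0.736 to 1.32, and Spp1 0.802 times ob, with an interval of 0.382 to 1.66. For Mpeg1 and Spp1 the NASH and ob libraries thus did not differ beyond counting error once set against pan-macrophage RNA. For Mpeg1 this depended on the list, since against the Kupffer list NASH was 1.47 times ob (1.11 to 1.95). Spp1 in NASH was 1.20 times ob by the Kupffer list (0.573 to 2.47). Differences between genes in this ratio were not tested.

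The macrophage lists themselves were higher in NASH. Calls in the lists stand beside those of all features, of which 20.3% were higher and 31.8% lower in NASH than in wild-type. In ob these shares were 34.5% and 15.5%, and in db 28.8% and 21.5%. List genes that passed the filter through the NASH library alone had to be highest there, so list calls in NASH are a description. The resident Kupffer list summed to 450 CPM in wild-type (389 to 518), 410 in ob (378 to 443), 845 in the NASH library (765 to 930) and 639 in db (592 to 689). Of its 12 genes past the filter 4 were at least 2-fold higher in NASH than in wild-type (33.3%) and 1 was lower, with a median of 0.75. Cd5l, a secreted scavenger protein of Kupffer cells, was at 51.0 CPM in wild-type and 203 in NASH, 3.98-fold higher (2.49 to 6.64). C1qb, a chain of complement C1q, was 4.02-fold higher (2.07 to 8.57). Cd163, the haemoglobin scavenger receptor, had 6 counts in wild-type and 1 in NASH, a ratio of 0.147 (0.00321 to 1.22).

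The pan-macrophage list summed to 287 CPM in wild-type, 237 in ob, 730 in the NASH library and 258 in db. Of its 12 genes past the filter 9 stood higher in NASH (75.0%) and 0 lower (median 1.44). Among the 12, Ncf1, Coro1a, Cd53 and Cd52 passed the filter through the NASH library alone, so their counts had to be highest there. Cybb, the catalytic subunit of the phagocyte oxidase, was 4.09-fold higher (1.88 to 10.2). Csf1r, the receptor for the macrophage growth factor CSF1, was 3.67-fold higher (1.98 to 7.34), and Lcp1, an actin-bundling protein of leukocytes, 3.58-fold higher (2.18 to 6.17). In ob 0 were higher and 3 lower than in wild-type, beside 34.5% of all features higher and 15.5% lower. In db 1 was higher (8.33%) and 7 were lower, beside 28.8% and 21.5%.

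Of 25 further genes of lipid-associated macrophages, 22 passed the filter, and 15 stood higher (68.2%) and 3 lower in NASH than in wild-type (median 1.55). Among the 22, Lgals3, Fabp5, Cd63, Atp6v0d2, Capg and Tyrobp passed through the NASH library alone, so their counts had to be highest there. Lgals3, the lectin galectin-3, was at 4.64 CPM in wild-type, 2.66 in ob, 92.3 in the NASH library and 3.79 in db, 19.9-fold higher in NASH than in wild-type (5.20 to 169). Lpl, lipoprotein lipase, was at 9.27, 19.3, 166 and 11.4 CPM, 17.9-fold higher (6.73 to 67.3). Atp6v0d2, a subunit of the vacuolar proton pump, was at least 3.54-fold higher, and Cd63, a lysosomal tetraspanin, at least 2.95-fold. Summed counts of this list went the other way, 0.347 times wild-type, because Apoe, the lipoprotein gene that hepatocytes also express strongly, gave 4766 of 5310 counts in wild-type and 1098 of 2084 in NASH. In ob 4 were higher (18.2%, beside 34.5% of all features) and 2 lower. In db 7 were higher (31.8%, beside 28.8% of all features) and 4 lower.

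Of 16 genes of TREM2 and Dectin-1 signalling, 5 passed the filter, and 4 were called higher and 0 lower in NASH. The 4 were Tyrobp, Inpp5d, Ptpn6 and Clec4n, and the last of these was called on 1 count against 0, so no direction follows for it. Tyrobp, the adaptor of TREM2, had 3 counts in wild-type and 13 in NASH, 3.83-fold higher with a lower limit of 1.05. Inpp5d, the lipid phosphatase SHIP1, was 3.01-fold higher (1.07 to 10.4), and Ptpn6, the phosphatase SHP-1, 10.6-fold higher on 1 and 12 counts (1.57 to 454). Syk, the kinase downstream of both receptors, was 1.67 times wild-type with an interval of 0.704 to 4.25. Tyrobp, Inpp5d, Ptpn6 and Syk passed the filter through the NASH library alone, so their counts had to be highest there. Clec4n, which encodes Dectin-2, had a count of 0 in wild-type, 11 in ob, 1 in the NASH library and 0 in db, so ob was its highest library. In ob 1 of the 5 was higher (Clec4n) and 3 were lower (Tyrobp, Inpp5d and Syk), beside 34.5% of all features higher and 15.5% lower. Clec4n in ob was at least 1.05-fold higher. Tyrobp had 3 counts in both libraries, so no direction follows for it. Inpp5d in ob was 0.229 times wild-type, with an interval of 0.0455 to 1.07. In db 0 were higher and 2 lower (Inpp5d and Syk), beside 28.8% and 21.5%.

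Of 10 osteopontin receptor genes 8 passed the filter, and 4 were higher and 2 lower in NASH. Cd44, the hyaluronan receptor, was 3.66-fold higher (1.57 to 9.91), and Itga4, an integrin of leukocytes, at least 2.95-fold higher. Itga9 had 2 counts in wild-type and 9 in NASH, a ratio of 3.98 (0.824 to 37.9), and Itgb3 had 4 and 1, a ratio of 0.221 (0.00449 to 2.23). In ob 2 were higher (25.0%, beside 34.5% of all features) and 0 lower. In db 3 were higher (37.5%, beside 28.8% of all features) and 1 lower.

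The lysosomal list was mixed in NASH. Of its 34 genes 30 passed the filter, with 9 higher and 7 lower and a median of -0.01, and the summed level was 1.15 times wild-type (1.06 to 1.25). Npc2, the soluble cholesterol carrier of lysosomes, was 5.48-fold higher (2.11 to 18.1), and Scarb2, a lysosomal membrane protein, 8.76-fold lower (3.10 to 34.2). Ctsf, cathepsin F, had 4 counts in wild-type and 0 in NASH. In db 16 of the 30 stood higher (53.3%, beside 28.8% of all features) and 0 lower (median 1.19). In ob 7 were higher (23.3%, beside 34.5% of all features) and 0 lower. The folds of Ctss and Cd68 in NASH, 6.63 and 5.90, thus stood beside 1.15 for the list. In db the list was at 2.33 times wild-type (2.18 to 2.49), beside 1.23 for Ctss (0.623 to 2.59).

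Of 14 metalloproteinase and inhibitor genes 2 passed the filter. Mmp14, a membrane-bound metalloproteinase, had 0 counts in wild-type and 9 in NASH, at least 2.65-fold higher, and Mmp19 was 7.91-fold lower (1.82 to 71.7). Of 16 cytokine and chemokine genes 2 passed. Ccl6, a chemokine of mouse myeloid cells, was at 4.64 CPM in wild-type and 61.5 in NASH, 13.3-fold higher (3.37 to 115). It passed the filter through the NASH library alone, so its count had to be highest there. Ccl9 had 3 and 7 counts, a ratio of 2.06 (0.471 to 12.4). In db both metalloproteinase genes were higher than in wild-type, beside 28.8% of all features, and neither chemokine was called.

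Of 15 transcription factors of macrophages and of the MiT/TFE family 8 passed the filter. Of these 6 stood higher (75.0%, beside 20.3% of all features) and 0 lower in NASH (median 1.76). Spi1, which encodes PU.1, had a count of 2 in wild-type, 3 in ob, 16 in the NASH library and 5 in db, 7.08-fold higher in NASH than in wild-type (1.66 to 63.4). Irf8, a factor of monocyte and macrophage development, was 11.5-fold higher on 1 and 13 counts (1.73 to 489), and Cebpa 4.13-fold (1.15 to 22.4). Spi1 and Irf8 passed the filter through the NASH library alone, so their counts had to be highest there. Tfe3, a regulator of lysosomal genes, was at least 2.36-fold higher on 0 and 8 counts. Mitf had 0 counts in wild-type and 2 in each of the other libraries. With counts under 3 set at 3, the NASH medians were 1.43 for the lipid-associated list, 1.51 for TREM2 and Dectin-1 signalling, 1.45 for the transcription factors, 1.38 for the pan-macrophage list and 0.57 for the Kupffer list, and that of the stellate list was 0.21 in place of 1.22.

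**Figure D5:**
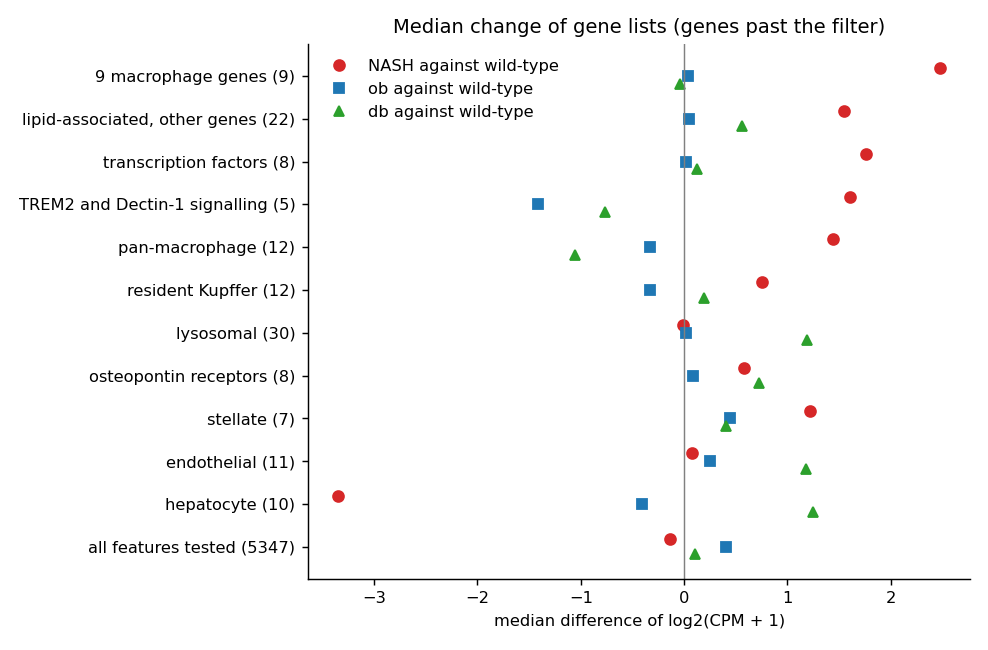
Median difference in log2(CPM + 1) from wild-type in NASH (circles), ob (squares) and db (triangles) for the 9 genes, for 10 gene lists and for all features tested. The number of genes past the filter is in brackets. In NASH the 9 genes stand at 2.48, the transcription factors at 1.76 and the hepatocyte list at -3.35.

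Genes of other cell types differed too. The hepatocyte list was at 55095 CPM in wild-type and 6130 in NASH, 8.99-fold lower (8.65 to 9.34), and at 38623 in ob and 124733 in db. In NASH 8 of its 10 genes were lower and 0 higher, beside 31.8% of all features lower. Fgb, a fibrinogen chain, was 15.0-fold lower in NASH (11.8 to 19.2), and Ttr, transthyretin, 11.9-fold (9.26 to 15.5). The stellate cell list was 2.08-fold higher in NASH (1.68 to 2.57), with 4 of 7 genes higher (57.1%, beside 20.3% of all features) and 1 lower. Col1a1, a collagen chain, was 9.86-fold higher (4.56 to 25.3), and Col3a1, another, 3.37-fold higher (2.17 to 5.41). Pdgfrb was called higher on 4 counts against 0 in wild-type, at least 1.18-fold. Lrat, the gene called lower, had 6 counts in wild-type and 2 in NASH, a ratio of 0.295 (0.0291 to 1.65). The endothelial list was 0.957 times wild-type (0.665 to 1.38), with 3 of 11 genes called higher (27.3%, beside 20.3% of all features) and 1 lower. The 3 were Lyve1, Pecam1 and Oit3, with 3, 2 and 3 counts in NASH against 0, 0 and 1 in wild-type, so no direction follows for them. The part of these lists in the level of the 9 genes was not tested.

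White cells other than macrophages left few reads. The monocyte list had a count of 4 in wild-type, 6 in ob, 17 in the NASH library and 16 in db, with Ly6c2 at 0 in NASH and Ccr2 at 3. The neutrophil list had 3, 5, 7 and 0 counts, or 6.95, 3.32, 14.4 and 0 CPM. The lymphocyte list had 4, 9, 10 and 4 counts, or 9.27, 5.98, 20.5 and 3.79 CPM. The dendritic cell list had 5, 20, 21 and 4 counts, or 11.6, 13.3, 43.1 and 3.79 CPM. Of its counts in NASH 14 were from Itgax, the integrin CD11c that lipid-associated macrophages also carry. Itgax was 12.4-fold higher in NASH than in wild-type (1.88 to 524). Of the osteoclast and melanocyte list, whose cells also express Gpnmb, only Acp5 passed the filter, at 1.47 times wild-type in NASH (0.686 to 3.31), and the rest of the list had 0 counts in NASH.

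The pattern of the set over the 4 libraries, 8.71% of its scaled signal in wild-type, 10.1% in ob, 73.0% in the NASH library and 8.19% in db, was compared with that of 1746 other features with at least 30 counts in their highest library. The nearest by Euclidean distance between these shares was Vim, the intermediate filament vimentin, at 0.0514, with 8.51%, 9.14%, 77.1% and 5.21%. Itgb2, the leukocyte integrin chain CD18, followed at 0.0610, with 4.36%, 9.99%, 73.2% and 12.5%. Next came Gm26870, listed in the table as AC131780.3, at 0.0620, the tropomyosin gene Tpm4 at 0.0687 and the actin-binding gene Cotl1 at 0.0737. Sirpa, an inhibitory receptor of myeloid cells, was at 0.0749, Lpl at 0.0910 and Ccl6 at 0.108. With 4 libraries, 1 of them high, this likeness mostly tells that a feature was high in NASH.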

How the data were processed

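Total RNA of liver mitochondria was sequenced in 4 libraries. Per the labels' protocols, the miRNeasy Mini Kit gave the RNA, and after depletion of ribosomal RNA strand-keeping libraries were built with NEBNext Ultra Directional reagents. Per the submitters' processing notes, the tools were TopHat2 2.1.1, Bowtie2 2.3.2, Trimmomatic 0.32 and bcl2fastq 2.20, with build mm10. The program and strand setting used for counting, and how reads with several places were counted, are not stated there.

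Per the file headers, the authors deposited expected counts per feature, with fractions, and TMM-normalized log2 values. The latter are the log2 count plus 1 constant per library, and they served only as an alternative scaling. Totals in wild-type, ob, NASH and db were 627890, 1000306, 529815 and 1005915 expected counts.

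Expected counts were rounded to whole numbers, and a feature was kept where 1 library or more had 10 or more counts (5347 of 37819). TMM factors from edgeR 4.0.16 (R 4.3.3) were 0.687, 1.51, 0.921 and 1.05 in wild-type, ob, NASH and db. Calls are differences of log2(CPM + 1) of at least 1. The added 1 CPM shrinks differences between low levels, yet calls of low genes can rest on 1 or 2 counts against 0. Folds of genes are ratios of scaled counts without pseudocount, with exact binomial 95% intervals, and ratios within a library have exact conditional intervals. Reads carry no molecular identifiers and are not independent molecules, so these intervals hold counting error alone. A fold against a library with 0 counts is a bound, set against 3 counts there, and none is given with 3 or fewer counts in both. No test was run, since each group is 1 library. Features resembling mtDNA genes were found with blastn 2.17.0 (at least 80% identity over at least 50% of the feature), which marked 9. Python 3.11.15 with numpy 2.4.6, pandas 2.3.3, scipy 1.17.1 and matplotlib 3.10.9 was used for the rest, and the code was tested on simulated counts.

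An item of the db genotype label is not reported here. The 9 genes, the gene lists and the rules were chosen with earlier results of these data known, so no list is independent evidence. Named are all 9 genes, Lyz1, from each list up to 4 genes past the filter with the largest change in NASH against wild-type (for TREM2 and Dectin-1 signalling all past it), and the 8 features nearest in pattern. Other list genes, such as Apoe, Ly6c2, Ccr2, Mitf and the examples that describe a list, were named after their values were seen. List genes were matched by symbol, or by the GENCODE M21 name of their Ensembl ID, and 2 were not matched. Alternatives were 6 other scalings (plain totals, DESeq2 1.42.0 size factors, TMMwsp, upper quartile, the submitters' constants and totals without mtDNA-like features), 2 other filters, another pseudocount, a 3-fold threshold, counts under 3 set at 3, counts left unrounded, and the set without Lyz2 or Spp1.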

Additional observations from a re-analysis of the deposited data

How the results depend on the processing

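Of 210 alternative values of the summed level, the counts of calls and the ratio to the macrophage lists, 168 stayed within the counting interval (or within 1.5 times the count), 41 moved and 1 reversed. Of 282 alternative folds of single genes 230 stayed within their interval, 52 were labelled moved and 0 reversed. Folds that are bounds have no interval, and they were labelled moved under every other scaling whatever their value. They were Gpnmb in NASH against wild-type, NASH against db and db against ob, and Mmp12 in NASH and ob against wild-type. In NASH against wild-type, ob and db, 9 of 9 genes were called higher and 0 lower, and every alternative kept the count within 1.5 times.

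The summed level in NASH against wild-type, 8.39, was 11.2 with plain library totals and 21.4 with totals without mtDNA-like features. Against ob, 7.27 became 4.44 with plain totals, 9.55 with DESeq2 size factors, 10.1 with TMMwsp, 8.37 with upper-quartile factors and 12.9 without mtDNA-like features. Against db, 8.92 became 12.4 with TMMwsp, 7.34 with the submitters' constants and 23.5 without mtDNA-like features. The level in ob against wild-type, 1.15, was 2.53 with plain totals and 1.66 without mtDNA-like features, that in db, 0.940, was 1.44 with plain totals and 1.33 with the submitters' constants, and that in db against ob, 0.814, was 0.568 and 0.550 with plain totals and without mtDNA-like features. Each of these follows from the scaling, since the counts stay the same.

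Genes called higher in ob than in wild-type, 2, were 5 with plain totals, 4 without mtDNA-like features, 1 with a pseudocount of 5 and 0 with counts under 3 set at 3. The 1 called lower was 0 with plain totals, the submitters' constants, a minimum of 20 counts, the pseudocount of 5 and the 3-fold threshold. In db against wild-type, the 1 called higher was 0 with the pseudocount of 5, the 3-fold threshold and counts set at 3. The 2 called lower were 0 with plain totals, the submitters' constants, the pseudocount of 5 and the 3-fold threshold, 1 with DESeq2 size factors and upper-quartile factors, and 5 with counts set at 3. The 3 called lower in db than in ob were 5 with plain totals and without mtDNA-like features, and 1 with the pseudocount of 5.

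The ratio to the Kupffer list in db against wild-type, 0.661, reversed to 1.05 with the pan-macrophage list, and the cause was not tested. With that list NASH against ob, 3.52, moved to 2.36, NASH against db, 6.75, to 3.16 and db against ob, 0.522, to 0.747.

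Depth limits Trem2, Cd68 and Spp1, with 2 or 3 counts in wild-type, and no difference under the floor of 6.95 CPM there can be seen. No paired analysis was possible because each group has 1 library.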
